A study of Mus musculus with 14 samples.

Results

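Imprinted growth genes are genes that only the maternal or only the paternal copy of the genome is known to express, and whose products act on body and organ growth. The 10 followed here were chosen by name from the count tables of freshly isolated mouse satellite cells, out of 49671 genes listed in each table. All 10 were present and passed the filter on low counts in both tables. They are H19, Igf2, Meg3, Rian, Mirg, Dlk1, Peg3, Plagl1, Grb10 and Ndn. The libraries were 4 labelled FosGFP+ and 4 labelled FosGFP-, from 4-month-old C57BL/6J mice, and 3 labelled FoscKO and 3 labelled Control, from 6-month-old C57BL/6J mice. Each was made from the RNA of 1000 satellite cells, which are muscle stem cells, sorted from resting muscle of the hind limbs, chest and upper forelimb. FosGFP marks a green fluorescent reporter of the transcription factor gene Fos, and FoscKO a conditional deletion of Fos. The sorting gate required integrin B1 and CXCR4, and it left out cells with Sca1, Ter119, CD11b, CD31 or CD45. The series text gives 4 mice for the first dataset and 3 for the second, and a FosGFP+ gate for both groups of the second. The labels used here name no Cre driver and tie no library to a mouse, so p-values measure the spread between libraries, which may be technical in part.

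Imprinting silences a gene on the chromosome inherited from a given parent, through DNA methylation laid down in the germ line. H19 and Igf2 share a domain in which a noncoding RNA is expressed from the maternal copy and a growth factor from the paternal copy. In the Dlk1-Dio3 domain the noncoding RNAs Meg3, Rian and Mirg come from the maternal copy and the protein-coding Dlk1 from the paternal copy. Peg3, Plagl1 and Ndn are paternally expressed, while Grb10 is maternally expressed in most tissues and paternally in neurons. Several of these genes are known from satellite cells and muscle regeneration. The counts do not separate the parental copies, so only the summed RNA of both was measured.

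The genes lie in several places of the GRCm38 genome. H19 (ENSMUSG00000000031, chr7:142575529-142578143, minus strand) and Igf2 (ENSMUSG00000048583, chr7:142650766-142666816, minus strand) are 72.6 kb apart. Dlk1 (ENSMUSG00000040856, chr12:109452823-109463336), Meg3 (ENSMUSG00000021268, chr12:109541001-109571726), Rian (ENSMUSG00000097451, chr12:109603940-109661716) and Mirg (ENSMUSG00000097391, chr12:109729764-109749460) follow each other on the plus strand, and span 296.6 kb from the start of Dlk1 to the end of Mirg. Peg3 (ENSMUSG00000002265, chr7:6703892-6730431, minus strand) and Ndn (ENSMUSG00000033585, chr7:62346569-62350262, plus strand) stand elsewhere on chromosome 7. Plagl1 (ENSMUSG00000019817) lies at chr10:13060504-13131694 on the plus strand and Grb10 (ENSMUSG00000020176) at chr11:11930508-12038683 on the minus strand. Exons of H19, Igf2, Meg3, Rian, Mirg and Plagl1 share bases with other annotated genes, over 0.486% to 9.15% of their exonic length. Reads there can be ambiguous, and strand use in the counting is not given in the sources used here.

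The noncoding members carry small RNA genes within them, and their mature miRNAs are shown because they are the best described products of these transcripts. RefSeq (GRCm38.p6) lists 39 mature miRNAs of 21 miRNA genes inside the members. Seeds, bases 2 to 8, are in capitals. H19 holds miR-675, Igf2 miR-483 and Meg3 miR-770:
mmu-miR-675-5p: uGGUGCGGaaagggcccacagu
mmu-miR-675-3p: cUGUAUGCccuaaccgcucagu
mmu-miR-483-5p: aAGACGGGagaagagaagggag
mmu-miR-483-3p: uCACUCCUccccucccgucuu
mmu-miR-770-5p: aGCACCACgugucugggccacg
mmu-miR-770-3p: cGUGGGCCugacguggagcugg
Of the 39 mature miRNAs, 38 seeds were different. The seed GGUUGCC was the 1 that occurred more than once, in a pair of miRNAs within Mirg:
mmu-miR-453: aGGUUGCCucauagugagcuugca
mmu-miR-496a-5p: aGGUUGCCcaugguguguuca
Rian and Mirg hold most of the rest, among them miR-341, miR-1188 and miR-370 in Rian and miR-134, miR-382, miR-410 and miR-409 in Mirg.

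The small RNA genes themselves were almost uncounted. Of 35 miRNA and snoRNA genes on the strand of their host, 16 had a count in any of the 14 libraries. They had 215 counts in all, and the highest count in a library was 12, for the snoRNA gene DQ267101 in Rian. Mir675, Mir483, Mir770 and Mir1906-1 had 0 counts in all 14 libraries. Reads that overlap both a small RNA gene and an exon of its host can be left out as ambiguous, and mature miRNAs are too short for the library method used.

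Levels are given as counts scaled to CPM of the library size scaled by TMM, a method that centres the fold changes of most genes. Gene counts lay between 3806776 and 5983711 per FosGFP+ library and between 2652230 and 4067543 per FosGFP- library. They lay between 4797954 and 10241655 per FoscKO library and between 5326686 and 6930696 per Control library. An even background of reads, estimated on olfactory, vomeronasal and taste receptor genes, made up 6.4% to 10.7% of gene counts in FosGFP+, against 13.04% to 19.5% in FosGFP-. They made up 3.98% to 11.7% in FoscKO and 9.09% to 10.6% in Control. Fos mRNA went against the labels in the first dataset, and in the second the group means were nearly equal. It averaged 4586 ± 1050 CPM in FosGFP+ and 10921 ± 2123 CPM in FosGFP- (SD, n = 4 each), and 5041 ± 2982 CPM in FoscKO and 4934 ± 174 CPM in Control (SD, n = 3 each). In FoscKO replicates 1, 2 and 3 Fos had 8442, 2876 and 3805 CPM, against 4733 to 5044 CPM in Control. Replicates 2 and 3 lay below every Control library and replicate 1 above. A gene-level count does not check a deleted part, so every direction here is between labels. The 14 satellite cell identity genes, Pax7 and Myf5 among them, were all detected, with a summed level of 11533 to 14422 CPM in FosGFP+ and 6438 to 9774 CPM in FosGFP-. Of these Sdc4, Vcam1, Des and Chrdl2 were called higher in FosGFP+ and 0 lower, against 10.3% and 1.85% of all genes, while Pax7, at a log2 fold change of -0.44 ± 0.27 (SE), and Calcr, at -0.51 ± 0.18, were not called. The list's median was -0.00026, where that of all genes was -0.18, with 3 called higher and 6 lower with total counts, and 3 and 8 when TMM was computed over abundant genes, those of at least 50 CPM. These were bulk libraries, so more cells of a kind and more RNA per cell cannot be told apart.

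The zinc finger gene Peg3, per exonic kb, was the most abundant member in all 4 groups. That scale sets levels of different genes side by side, but it divides by all annotated exons of a gene and keeps the background in. On it the group means of Peg3 ran from 53.8 to 80.6 CPM per kb. Grb10, an adaptor that restrains insulin and IGF receptor signalling, came next at 24.5 to 48.5, then Meg3 at 10.1 to 22.9 and Plagl1 at 4.66 to 15.3 CPM per kb. Those 4 led in the same order in every group. Within single libraries that order held in each but Control replicate 1, where Plagl1 had 19.4 CPM per kb and Meg3 16.4. Taken over the libraries of a group, ranges of neighbours did not overlap in FosGFP+, whereas each pair overlapped in FosGFP-. In FoscKO and in Control, Meg3 and Plagl1 overlapped and the pairs above them did not. Igf2, Rian, H19, Ndn, Mirg and Dlk1 had group means of 1.24 to 7.42 CPM per kb and, ordered by mean within each group, neighbours among them overlapped except Igf2 and Rian in FosGFP+. In FosGFP+ and in Control, Igf2 also did not overlap Plagl1 above it. Dlk1, a transmembrane protein with EGF-like repeats that restrains adipocyte differentiation, had the lowest mean in FosGFP-, FoscKO and Control.

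Even background limits how much the lower members can show. It was estimated at 0.579% to 4.05% of the counts of Peg3, 0.848% to 11.3% of Grb10, 1.51% to 22.04% of Meg3 and 2.2% to 36.4% of Plagl1. For Rian it was 14.1% to 32.5% and for Igf2 13.6% to 45.9%, with 14.04% to 18.7% in FosGFP+ and 25.4% to 45.9% in FosGFP- for Igf2. For Mirg it was 18.7% to 86.1%, for H19 3.4% to 78.8% and for Ndn 14.6% to 57.6%. Dlk1 counts were at or under the estimated background in 6 of 14 libraries and exceeded 2 times the background in 5.

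**Figure D1:**
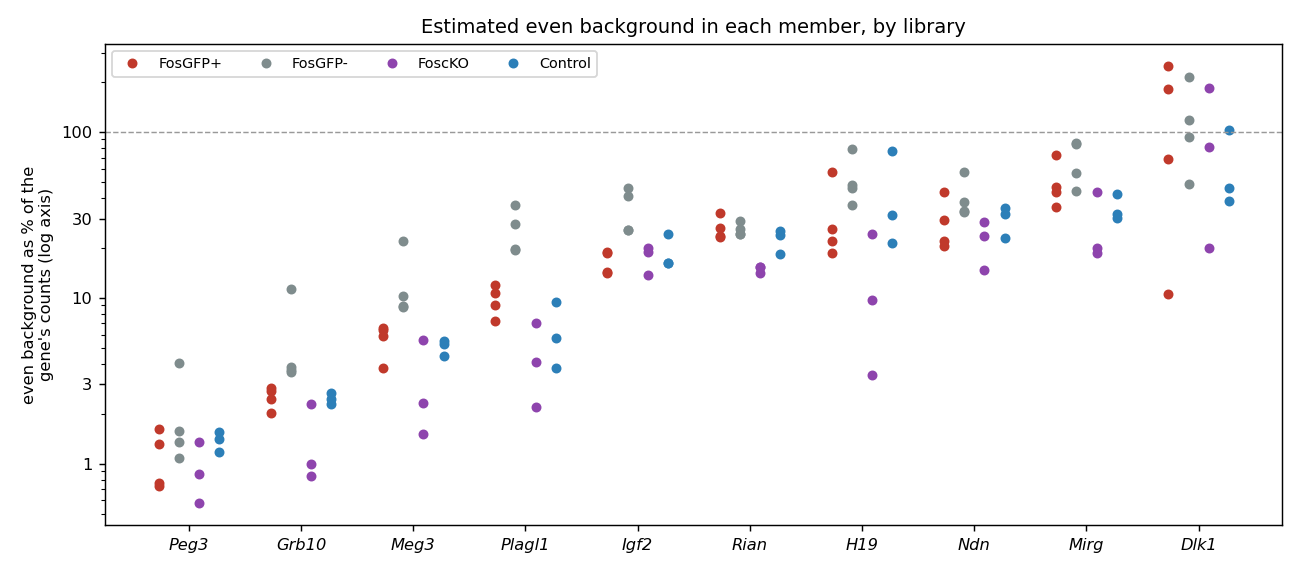
Estimated even background as a percentage of each member's counts (log axis) in the 14 libraries, coloured by group, with the members ordered by their median; the dashed line marks a background equal to the counts. Peg3, Grb10 and Meg3 lie lowest, at up to 22.04% in any library, and Dlk1 crosses the line in 6 of 14 libraries.

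The first comparison sets reporter-positive against reporter-negative satellite cells of the same muscles. Plagl1 was the 1 member that passed the test, and it was higher in libraries labelled FosGFP+. Its protein is a zinc finger transcription factor that regulates other imprinted genes and can hold back cell division. Plagl1 had 62.9, 69.8, 61.4 and 72.1 CPM in FosGFP+ and 20.5, 47.7, 42.6 and 34.9 CPM in FosGFP-. All FosGFP+ libraries stood above all FosGFP- libraries. The log2 fold change was 0.87 ± 0.24 (SE), with an edgeR adjusted p of 0.0263 over 20698 genes. Over all genes tested, 10.3% were called higher and 1.85% lower, so 1 higher member and 0 lower members of 10 is a share near that background. The calls over all genes were 2125 higher and 383 lower, but 1005 and 2243 with total counts and 722 and 5252 with TMM over abundant genes. In the authors' deposited table Plagl1 is the 1 member listed, with a log2 fold change of 0.92 ± 0.25 in FosGFP+ and an adjusted p of 0.00338, after turning round their sign.

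The Plagl1 call depended on the scaling. It was lost when libraries were scaled by total counts (0.48; edgeR adjusted p = 0.142), with TMM over abundant genes, those of at least 50 CPM (0.29; 0.313), and after the even background was subtracted (0.88; 0.0873). Its libraries still did not overlap with total counts, at 56.3 to 61.1 CPM in FosGFP+ and 23.1 to 51.1 in FosGFP-. They did overlap with TMM over abundant genes. Leaving out FosGFP+ replicate 2 or 4 or FosGFP- replicate 1 or 4 ended the call as well, at log2 fold changes of 0.88, 0.87, 0.69 and 0.87. Background made up 7.24% to 11.9% of its counts in FosGFP+ and 19.5% to 36.4% in FosGFP-.

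A start region of Plagl1 is shown because Plagl1 was the member called. It is the RefSeq window (chr10:13090582-13090881, GRCm38.p6, plus strand) from 250 bases before to 50 after a start inside the gene span given above. The median of all 32851 windows is 7 CpG pairs, that of the 14 member windows is 10.5, and a Grb10 window holds 45. The Plagl1 window holds 26 CpG pairs, in capitals:
Plagl1: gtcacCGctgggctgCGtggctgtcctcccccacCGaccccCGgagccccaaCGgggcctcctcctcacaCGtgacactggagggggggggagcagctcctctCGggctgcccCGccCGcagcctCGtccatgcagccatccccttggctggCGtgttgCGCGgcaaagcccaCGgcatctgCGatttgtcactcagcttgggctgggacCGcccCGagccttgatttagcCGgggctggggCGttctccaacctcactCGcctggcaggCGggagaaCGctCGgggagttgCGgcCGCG
The AP-1 motif TGANTCA, which Fos-containing dimers are known to bind, was searched on both strands. It occurs in 0 of 14 windows of 9 members and in 7.81% of all windows. The related motif TGACGTCA reads the same on both strands. It occurs in 2 of the 14 windows, of Peg3 and of Meg3, and in 1.79% of all windows. The window of Meg3 (chr12:109540746-109541045, plus strand) is shown with that match in capitals, since Meg3 is the next member whose libraries did not overlap:
Meg3: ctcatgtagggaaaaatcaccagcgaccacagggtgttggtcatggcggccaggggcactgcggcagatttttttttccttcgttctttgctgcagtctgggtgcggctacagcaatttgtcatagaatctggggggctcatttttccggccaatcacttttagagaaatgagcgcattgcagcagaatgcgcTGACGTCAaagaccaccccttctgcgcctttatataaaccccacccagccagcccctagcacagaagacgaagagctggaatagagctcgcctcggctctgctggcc
These matches describe letters only, and binding was not measured.

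The maternally expressed noncoding RNA Meg3 had 235.9, 307.9, 262.8 and 258.3 CPM in FosGFP+ and 194.7, 209.9, 221.4 and 102.2 CPM in FosGFP-. The groups did not overlap, but Meg3 was not called, at a log2 fold change of 0.55 ± 0.22 (SE; edgeR adjusted p = 0.123). Over all genes, 12.9% did not overlap in the higher direction and 6.45% in the lower, and of the members 2 of 10 and 0 of 10 did so. With total counts the Meg3 libraries overlapped, and with TMM over abundant genes the log2 fold change was -0.01.

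Rian, the noncoding RNA just downstream that hosts many snoRNAs, took the opposite direction. It had 59.6, 50.5, 52.3 and 64.9 CPM in FosGFP+ and 60.1, 89.9, 80.8 and 87.5 CPM in FosGFP-. The groups overlapped through FosGFP- replicate 1, and the log2 fold change of -0.48 ± 0.20 (SE) was not called (edgeR adjusted p = 0.125). With total counts Rian was called lower in libraries labelled FosGFP+ (-0.89; edgeR adjusted p = 0.00948), and likewise with TMM over abundant genes (-1.08; 0.00329). After subtraction of the background the value was -0.74 (0.0536). Those scalings shift the median of all genes by -0.40, -0.58 and -0.19, so the call of Rian moves with the same choice as that of Plagl1.

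The ratio of Rian to Meg3 counts within a library does not depend on the scaling. The ratio was chosen after the values were seen, and no p is given. Rian counts were 25.3%, 16.4%, 19.9% and 25.1% of Meg3 counts in FosGFP+ and 30.9%, 42.8%, 36.5% and 85.7% in FosGFP-. The highest value belonged to FosGFP- replicate 4, and the groups did not overlap with or without it. In FoscKO the ratios were 9.97%, 40.1% and 15.2%, and in Control 18.9%, 29.0% and 22.01%, where the groups overlapped. After the even background was taken off, the ratios ran from 13.1% to 20.4% in FosGFP+ and from 24.1% to 81.4% in FosGFP-. The ratio also moved with the background of the library. Over the 14 libraries, after group means were taken out, it had a Pearson r of 0.84 with the background share, and 0.82 after the background was taken off. These points share libraries and depth, so the r is a description, and the part of library quality in the ratio was not tested.

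**Figure D2:**
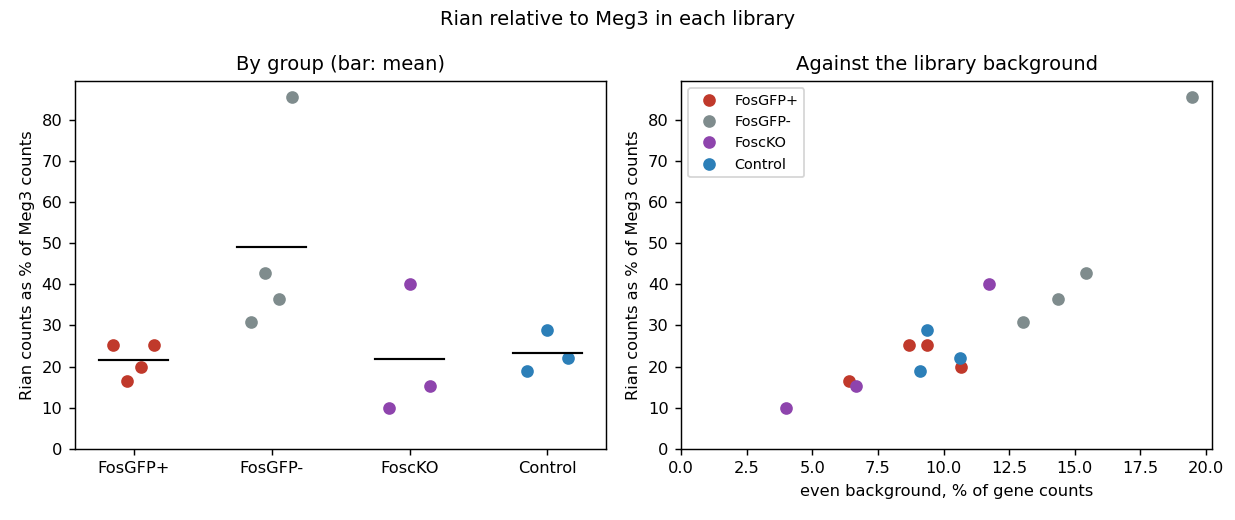
Rian counts as a percentage of Meg3 counts in each library, by group with the mean as a bar (left) and against the library's even background as a percentage of gene counts (right). FosGFP+ libraries lie from 16.4% to 25.3% and FosGFP- libraries from 30.9% to 85.7%, with a Pearson r of 0.90 between ratio and background over all 14 libraries.

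The other members were not called between libraries labelled FosGFP+ and FosGFP-. Grb10 had 272.1, 289.7, 307.5 and 309.01 CPM in FosGFP+ and 241.5, 293.7, 254.5 and 100.1 CPM in FosGFP-, a log2 fold change of 0.40 ± 0.25 (SE; edgeR adjusted p = 0.322). FosGFP- replicate 4 lay far below the rest, and the groups overlapped through FosGFP- replicate 2. Peg3 had 1557, 1124, 764 and 853 CPM in FosGFP+ and 1172, 1176, 916 and 409 CPM in FosGFP- (0.23 ± 0.29; 0.644), with a wide overlap. FosGFP- replicate 4 was the lowest library of its group for Meg3, Grb10 and Peg3, also after the background was subtracted. It also had the lowest gene counts of its group, 2652230, and the highest background share, 19.5%. Its sums of satellite cell identity genes (6438 CPM) and of fibro-adipogenic, smooth muscle, endothelial and mature fibre markers were the group's lowest. Its leukocyte sum was the highest, and its Schwann cell sum was level with that of FosGFP- replicate 2, at 97.4 and 97.3 CPM. The part of these in the members' values was not tested.

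Igf2, the growth factor whose signal Grb10 restrains, had 26.5, 26.3, 28.4 and 33.5 CPM in FosGFP+ and 21.4, 26.7, 14.95 and 15.5 CPM in FosGFP-. Its log2 fold change of 0.54 ± 0.26 (SE) was not called (edgeR adjusted p = 0.197), and FosGFP- replicate 2 lay among the FosGFP+ libraries. H19, at 3.98 to 9.36 CPM in FosGFP+ and 3.88 to 8.04 CPM in FosGFP-, had 13 to 43 counts per library (0.42 ± 0.41; 0.542). Mirg, the noncoding RNA at the end of the Meg3 cluster that hosts many miRNAs, had 8.58 to 15.6 CPM in FosGFP+ and 10.05 to 17.8 CPM in FosGFP- (-0.01 ± 0.33; 0.99). Ndn, which encodes the MAGE family protein necdin, had 7.19 to 14.3 CPM in FosGFP+ and 6.9 to 14.04 CPM in FosGFP- (0.04 ± 0.35; 0.947). Differences of H19, Mirg and Ndn within these errors were not detectable at this depth.

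Dlk1 depended on a single library. It had 45.8, 1.46, 7.68 and 2.61 CPM in FosGFP+ and 5.79, 13.8, 5.18 and 3.29 CPM in FosGFP-. FosGFP+ replicate 1, with 192 counts, stood apart from its group, where the other 3 libraries had 7 to 27 counts. The log2 fold change was 1.03 ± 0.80 (SE; edgeR adjusted p = 0.429) and turned to -0.84 without that library. Its background share there was 10.6%, against up to 250% in the rest of the group.

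**Figure D3:**
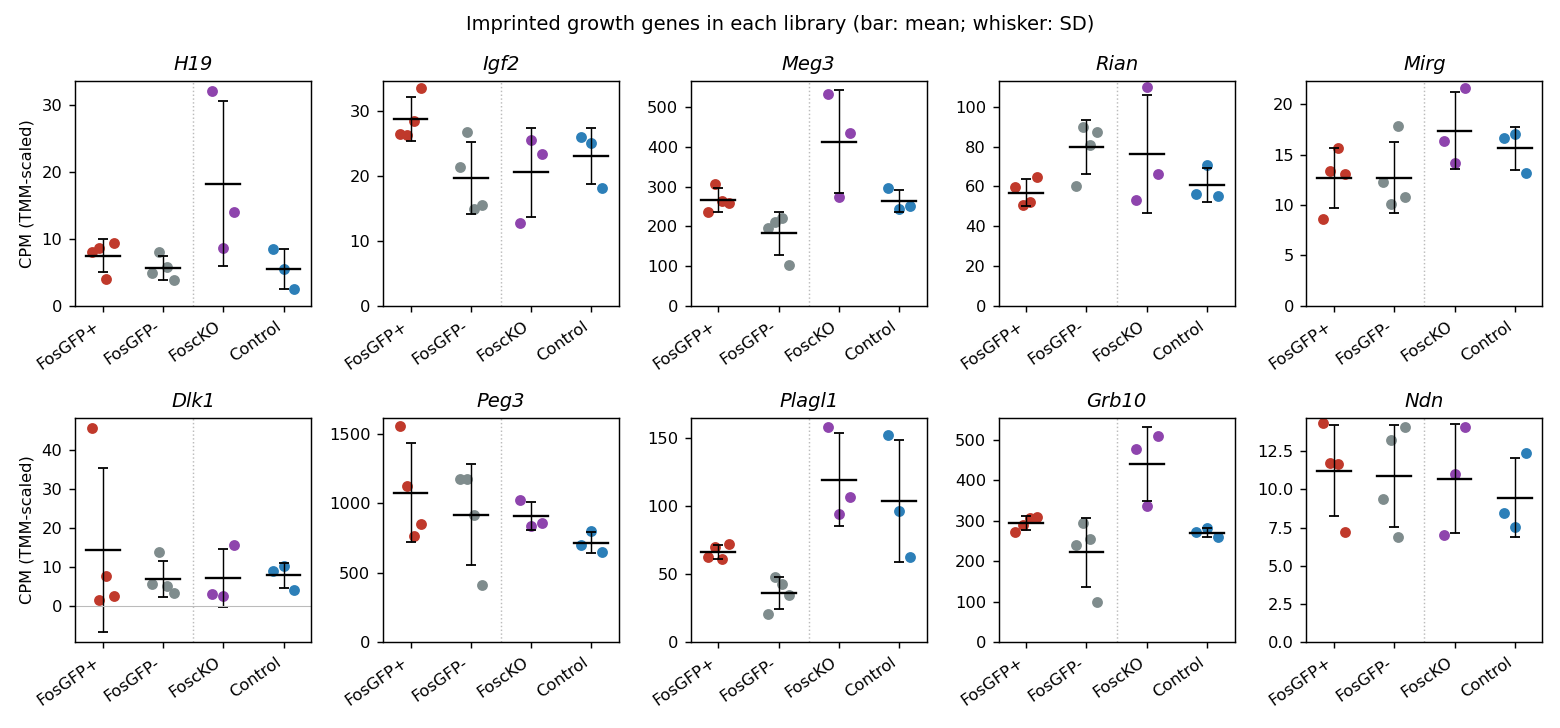
CPM of the 10 members in each library, with the group mean as a bar and the SD as a whisker (n = 4 for FosGFP+ and FosGFP-, n = 3 for FoscKO and Control). Plagl1 and Meg3 do not overlap between FosGFP+ and FosGFP-, FosGFP- replicate 4 is low for Meg3, Grb10 and Peg3, and Dlk1 has 1 high FosGFP+ library at 45.8 CPM.

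The second comparison asks how satellite cells with the conditional deletion of Fos differ from controls. By edgeR 0 of the 10 members passed, and so did 0 of 21885 genes, that is 0% higher and 0% lower, with 1208 genes at an unadjusted p under 0.05. Limma-voom called 6 genes and DESeq2 93, and of the members both called 0, where DESeq2 gave no adjusted p for Dlk1 and Ndn. Of the members 3 had an unadjusted p under 0.05, namely H19, Meg3 and Grb10. The groups did not overlap in the higher direction for 3 of 10 members, against 5.75% of all genes, and in the lower direction for 0 of 10, against 6.47%. The members' median log2 fold change was 0.27, where that of all genes was -0.04. A like shift was seen in the 14 satellite cell identity genes. Of these edgeR called 0, and 4 did not overlap in the higher direction and 0 in the lower, against the same shares of all genes. Their median log2 fold change was 0.48, and their sums were 9698 to 18448 CPM in FoscKO and 7978 to 10701 CPM in Control.

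Grb10 had 476.9, 335.9 and 509.4 CPM in FoscKO and 271.7, 281.9 and 260.1 CPM in Control. All libraries labelled FoscKO were above all labelled Control, at a log2 fold change of 0.70 ± 0.26 (SE; edgeR adjusted p = 0.783). The groups also did not overlap with total counts or with TMM over abundant genes. H19 had 32.1, 8.57 and 14.07 CPM in FoscKO and 8.43, 5.54 and 2.44 CPM in Control. The lowest FoscKO library exceeded the highest Control library by little, and the log2 fold change was 1.74 ± 0.57 (SE; edgeR adjusted p = 0.705). Without FoscKO replicate 1 it was 1.06 (edgeR adjusted p = 0.99), and over all libraries left out in turn it ran from 1.06 to 2.2. FoscKO replicate 1 had 238 H19 counts, more than its 94 Igf2 counts, whereas the other 13 libraries had fewer H19 than Igf2 counts.

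Peg3 had 1024, 839 and 861 CPM in FoscKO and 697, 803 and 651 CPM in Control (0.34 ± 0.27; edgeR adjusted p = 0.914). These did not overlap, but did with total counts and with TMM over abundant genes. Meg3 had 532.3, 273.6 and 434.5 CPM in FoscKO and 296.5, 244.3 and 251.7 CPM in Control (0.65 ± 0.29; 0.89). Its groups overlapped through FoscKO replicate 2, yet did not overlap under those other scalings. Even background was 3.98%, 11.7% and 6.65% of gene counts in FoscKO replicates 1, 2 and 3, and its part in the Meg3 and H19 values was not tested.

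The remaining members overlapped between FoscKO and Control. Plagl1 had 157.99, 93.9 and 106.5 CPM in FoscKO and 151.9, 96.4 and 62.9 CPM in Control (0.21 ± 0.32; edgeR adjusted p = 0.942). Its group means were above those of the first dataset, although the datasets were normalized apart and differ in age. Rian had 53.07, 109.8 and 66.1 CPM in FoscKO and 55.997, 70.8 and 55.4 CPM in Control, with FoscKO replicate 2 highest. Igf2 had 12.7, 25.5 and 23.3 CPM in FoscKO and 26.03, 25.1 and 18.1 CPM in Control, with FoscKO replicate 1 lowest. Mirg ranged over 14.2 to 21.6 CPM in FoscKO and 13.2 to 17.01 CPM in Control, Dlk1 over 2.61 to 15.8 and 4.24 to 10.4 CPM, and Ndn over 7.02 to 14.07 and 7.56 to 12.4 CPM. The edgeR adjusted p of these 5 members lay between 0.917 and 0.986.

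**Figure D4:**
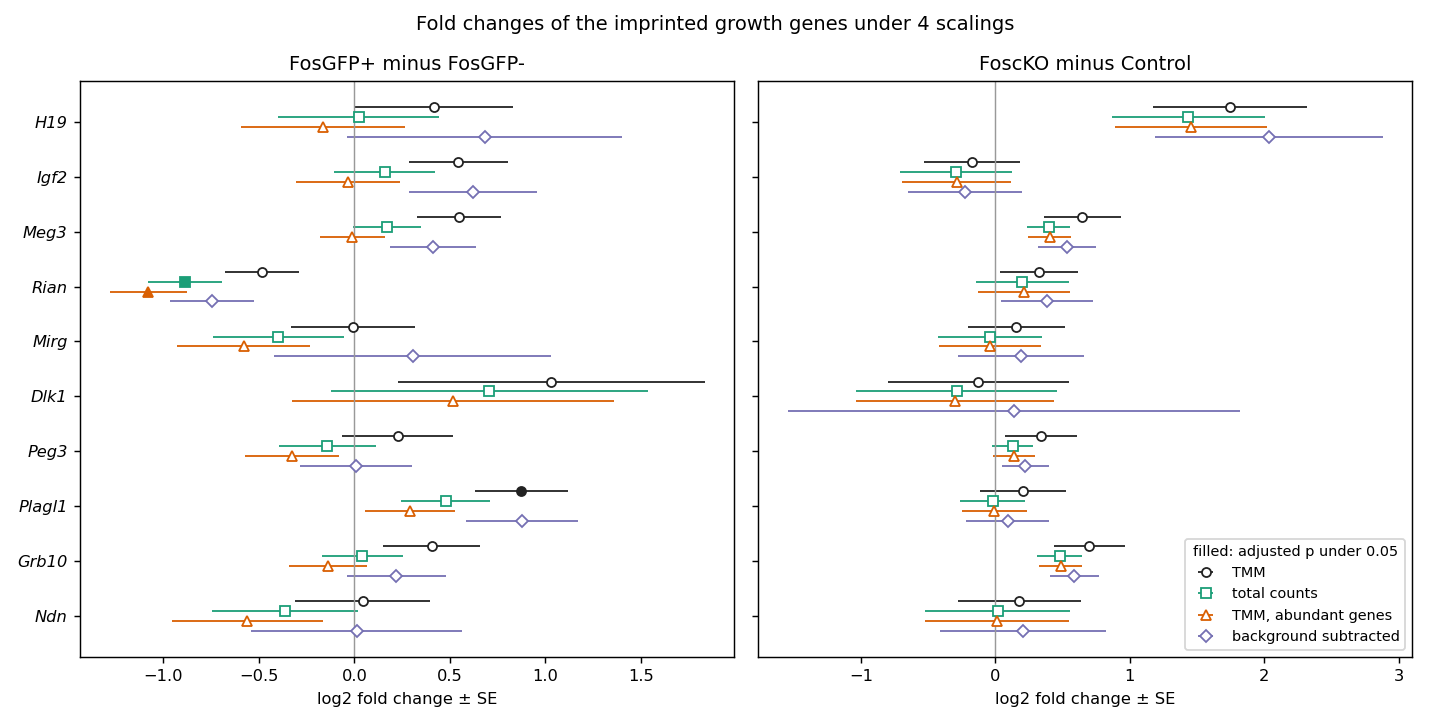
Log2 fold changes with their SE for the 10 members, FosGFP+ minus FosGFP- (left) and FoscKO minus Control (right), under TMM, total counts, TMM over abundant genes and after background subtraction; filled symbols have an adjusted p under 0.05. Plagl1 is filled with TMM alone (0.87) and Rian with total counts (-0.89) and TMM over abundant genes (-1.08).

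Members varied together within groups to differing degrees. After group means were taken out, Meg3 and Grb10 had a Pearson r of 0.88 over the 14 libraries, H19 and Plagl1 0.75, Peg3 and Grb10 0.72 and Meg3 and Rian -0.63. Of 45 pairs, 5 were above 0.5 and 1 below -0.5, with a median of 0.08. These libraries share depth and background, and the background share of the library had an r of -0.89 with Meg3, 0.74 with Rian, -0.70 with H19, -0.69 with Grb10 and -0.61 with Peg3. For Plagl1 it was -0.23. Measured in the same way over 19820 genes, the genes most like Meg3 were Eif4g1 (0.98), Ywhag (0.98) and Rabggta (0.97). Those most like Grb10 were Col5a3 (0.97), Col18a1 (0.97) and Nploc4 (0.95), and those most like Peg3 were Leng8 (0.97), Mapk8ip3 (0.96) and Ripor1 (0.95). Nupl1 (0.95), Gm12696 (0.94) and Tapt1 (0.92) were most like Plagl1. The closest gene to H19 was Sde2 (0.97), to Rian Klrg1 (0.96), to Ndn Arhgef26 (0.94), to Igf2 Gm5703 (0.90), to Dlk1 Zc3h4 (0.88) and to Mirg Dlg2 (0.88). These genes were picked as the highest of 19820 over only 14 libraries. Such a search yields high values by itself, so no link between the genes is drawn from them. Dlk1 and Mirg also had much background in their counts.

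Of 44 other imprinted genes, 36 were tested in the first comparison. Of these 1 was called higher in FosGFP+ and 0 lower, against 10.3% and 1.85% of all genes. Their median log2 fold change was -0.06, where that of all genes was -0.18. The 1 called was H13, which encodes a signal peptide peptidase, at 254.4 ± 35.05 CPM in FosGFP+ and 129.4 ± 14.8 CPM in FosGFP- (SD, n = 4 each; 0.98 ± 0.18; edgeR adjusted p = 0.0017). With total counts 1 was called higher and 5 lower, and with TMM over abundant genes 0 and 11. Among the most abundant per exonic kb, the calcitonin receptor gene Calcr, itself a satellite cell marker, had 143.7 ± 16.2 CPM in FosGFP+ and 205.05 ± 36.7 CPM in FosGFP- (edgeR adjusted p = 0.0791). Gnas, for a G protein subunit, had 425.1 ± 47.8 CPM in FosGFP+ and 330.3 ± 53.04 CPM in FosGFP- (0.201). The cell cycle inhibitor gene Cdkn1c had 31.5 ± 17.6 CPM in FosGFP+ and 91.4 ± 115 CPM in FosGFP- (0.292). In the second comparison 38 were tested and edgeR called 0. Cdkn1c had 459.5 ± 294 CPM in FoscKO and 137.5 ± 39.7 CPM in Control (SD, n = 3 each; 1.74 ± 0.43; edgeR adjusted p = 0.339). Mest, a paternally expressed gene that is outside the rule for named genes and was chosen after its values were seen, had 135.2 ± 24.4 CPM in FoscKO and 66.7 ± 3.85 CPM in Control (1.02 ± 0.24; 0.297). Neither overlapped between the groups. Of the 38 genes, 3 did not overlap in the higher direction and 1 in the lower, against 5.75% and 6.47% of all genes.

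Among 14 genes of IGF2 signalling, 3 were called higher in FosGFP+ and 0 lower, where 10.3% of all genes were called higher and 1.85% lower. Igf2bp2, an RNA-binding protein of Igf2 mRNA, had 192.4 ± 48.6 CPM in FosGFP+ and 49.1 ± 13.4 CPM in FosGFP- (SD, n = 4 each; 1.97 ± 0.24; edgeR adjusted p = 1.61e-04). The kinase genes Akt2 (1.29 ± 0.19; 4.92e-04) and Akt1 (1.06 ± 0.21; 0.00282) rose as well. The list's median was -0.21, near the -0.18 of all genes. With total counts 3 were called higher and 4 lower, and with TMM over abundant genes 2 and 7. The insulin receptor substrate gene Irs2, the most abundant of the list per exonic kb, had 726.7 ± 94.2 CPM in FosGFP+ and 510.7 ± 124 CPM in FosGFP- (edgeR adjusted p = 0.106). In the second comparison edgeR called 0 of 14.

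The machinery that keeps imprints was not called. Of 12 genes, 11 were tested in the first comparison and 12 in the second, and edgeR called 0 in both, where the share of all genes called is given above. Trim28, the corepressor that imprint-binding zinc finger proteins recruit, had 96.9 ± 15.9 CPM in FosGFP+ and 70.7 ± 15.6 CPM in FosGFP- (edgeR adjusted p = 0.178). Zfp445, such a zinc finger protein, had 91.9 ± 17.9 CPM in FosGFP+ and 61.5 ± 20.2 CPM in FosGFP- (0.135). Ctcf, which insulates the H19 and Igf2 domain, had 64.1 ± 13.9 CPM in FosGFP+ and 60.7 ± 7.56 CPM in FosGFP- (0.83). The heterochromatin gene Cbx5 had 112.4 ± 5.26 CPM in FosGFP+ and 79.8 ± 18.1 CPM in FosGFP- (0.109). With total counts 2 of the 11 were called lower, and with TMM over abundant genes 3.

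Summed levels of some lists of markers of other cells did not overlap between groups, and their part in the members' values was not tested. In each list 0 markers were at 0 in all libraries of a dataset. Smooth muscle and pericyte markers, 12 with the shared gene Des, summed to 2479 to 3163 CPM in FosGFP+ and 1039 to 1930 CPM in FosGFP-, without overlap. Without Des the sums overlapped, at 817.4 to 1082 CPM in FosGFP+ and 354.5 to 911.3 CPM in FosGFP-. The 14 leukocyte markers summed to 74.4 to 132.7 CPM in FosGFP+ and 135.1 to 186.1 CPM in FosGFP-, also without overlap. Singly, 8 of them passed the filter on low counts, 0 were called and 0 did not overlap. In the lower direction, 1.85% of all genes were called and 6.45% did not overlap. The median log2 fold change of the 8 was -0.25, where that of all genes was -0.18. The 14 endothelial markers summed to 254.8 to 320.5 CPM in FosGFP+ and 318.4 to 435.7 CPM in FosGFP-, overlapping slightly. Singly, 13 of them were tested, 1 was called lower and 0 higher. In the lower direction 4 did not overlap and in the higher 0, at a median log2 fold change of -0.57. The sums of the other lists overlapped widely. The 15 fibro-adipogenic markers summed to 4095 to 5365 CPM in FosGFP+ and 2522 to 5407 CPM in FosGFP-, and the 19 mature fibre markers to 1239 to 2333 CPM in FosGFP+ and 1173 to 1642 CPM in FosGFP-. The 11 Schwann cell markers summed to 71.01 to 101.04 CPM in FosGFP+ and 77.6 to 97.4 CPM in FosGFP-, and the 9 tenocyte markers to 56.4 to 801 CPM in FosGFP+ and 93.3 to 1467 CPM in FosGFP-. Singly, 1 of 13 fibro-adipogenic genes tested was called lower and 1 of 19 mature fibre genes higher. Of 8 Schwann cell and 8 tenocyte genes 0 were called. Among all genes 10.3% were called higher and 1.85% lower. The median log2 fold changes of these 4 lists were -0.56, 0.37, -0.32 and -1.20.

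In the second dataset, tenocyte markers summed to 64.4 to 89.3 CPM in FoscKO and 93.8 to 123 CPM in Control, without overlap. Smooth muscle and pericyte markers without Des summed to 1146 to 1755 CPM in FoscKO and 714.1 to 1025 CPM in Control, also without overlap, while with Des they overlapped, at 2464 to 4687 CPM in FoscKO and 1732 to 2814 CPM in Control. Mature fibre markers summed to 886 to 2508 CPM in FoscKO and 2138 to 4363 CPM in Control. Of their 19 genes edgeR called 0, with a median log2 fold change of -1.12, and 5 did not overlap in the lower direction, against 6.47% of all genes. The remaining sums overlapped. Fibro-adipogenic markers came to 5711 to 10388 CPM in FoscKO and 6490 to 8159 CPM in Control, and endothelial markers to 255.5 to 316.1 CPM in FoscKO and 240.3 to 295.2 CPM in Control. Leukocyte markers came to 65.6 to 117.2 CPM in FoscKO and 79.6 to 105.4 CPM in Control, and Schwann cell markers to 52.8 to 77.8 CPM in FoscKO and 51.1 to 70.4 CPM in Control.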

How the data were processed

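RNA of 1000 sorted cells per library was amplified with a Smart-Seq kit and tagged with Nextera XT, per the labels' protocols. The build GRCm38 and the tools limma, DESeq2 1.20.0, STAR 2.5.0c and HTSeq 0.6.1 are named in the submitters' processing notes, without their roles. The authors deposited raw counts per Ensembl gene (49671 genes and 5 lines that name no gene, left out) and their own log2 fold changes and p-values, signed reference over tested. A further 14 columns of per-library values there carry names matching no label and were left out. Symbols and exonic lengths came from GENCODE M21 (49326 genes found).

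The datasets were fitted apart with edgeR 4.0.16 (R 4.3.3; limma 3.58.1 and DESeq2 1.42.0 as alternatives), TMM, filterByExpr, robust quasi-likelihood test, no covariate, Benjamini-Hochberg adjusted p under 0.05. The even background is reads per exonic kb over 1465 receptor genes. Alternatives were 2 other scalings and DESeq2 size factors, 2 filters, 2 other tools, background subtraction, a replicate block and each library left out. The fit was tested on simulated counts that held no even background and no general shift between groups. That test cannot judge the choice of scaling. Members and lists were chosen with earlier results of these data known. The text names all members, and from other lists those called (4 per direction) and the 4 most abundant per exonic kb.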

Additional observations from a re-analysis of the deposited data

Results flagged for a closer look

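Among groups of 4 libraries, 3 of 40 had a library far from the rest, where chance gives about 1 in 20. Dlk1 stood at 45.8 CPM in FosGFP+ replicate 1, while the other FosGFP+ libraries had up to 7.68 CPM. Smooth muscle and pericyte markers without Des summed to 354.5 CPM in FosGFP- replicate 4, and to 874.3 CPM or more in the other FosGFP- libraries. Leukocyte markers summed to 186.1 CPM in FosGFP- replicate 4 and to 135.1 to 135.5 CPM in the other 3.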

How the results depend on the processing

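Calls over all genes, 2508 for FosGFP+ minus FosGFP-, came to 5974 with TMM over abundant genes (722 higher, 5252 lower) and 1570 after subtraction of the background. With each library left out they ran from 1893 to 2566, and members called from 0 to 1. Subtraction left 0 members called of 9. For FoscKO minus Control the 0 calls became 45 when scaled by total counts, 43 with TMM over abundant genes, 131 with no filter, 32 at 5 CPM, 6 with limma-voom, 93 with DESeq2 and 15 after subtraction. Leaving out libraries gave 0 to 43, with 43 without FoscKO replicate 1. Between FosGFP+ and FosGFP-, total counts turned the direction of Peg3 (-0.14) and Ndn (-0.36). TMM over abundant genes turned that of H19 (-0.16), Igf2 (-0.032), Meg3 (-0.011), Peg3 (-0.33), Grb10 (-0.14) and Ndn (-0.56). Mirg turned with DESeq2 size factors (0.035), no filter (0.081), DESeq2 (0.035) and subtraction (0.31), Ndn with the 5 CPM filter (-0.022) and Dlk1 with limma-voom (-0.068). Between FoscKO and Control Mirg (-0.039) and Plagl1 (-0.021) turned with total counts, Mirg (-0.036) and Plagl1 (-0.0070) with TMM over abundant genes, and Dlk1 (0.14) with subtraction. Total counts and TMM over abundant genes shifted the median of all genes by -0.40 and -0.58 in the first comparison. In the second, both shifted it by -0.18. The cause of the single turns was not tested. With libraries left out, the ranges in the first comparison were -0.082 to 0.21 for Mirg, -0.84 to 1.6 for Dlk1, -0.10 to 0.23 for Ndn and -0.010 to 0.41 for Peg3. In the second they were 1.06 to 2.2 for H19, -0.34 to 0.081 for Igf2, -0.012 to 0.53 for Rian, -0.032 to 0.30 for Mirg, -1.45 to 0.27 for Dlk1, -0.047 to 0.60 for Plagl1 and -0.077 to 0.42 for Ndn. Of the members' values under other settings, 155 kept direction and call, 19 turned, 3 lost a call and 2 gained one. The replicate block changed no member's call. It gave Plagl1 a log2 fold change of 0.93 and, over all genes, 2280 calls in the first comparison and 43 in the second. Same-numbered libraries correlated from -0.01 to 0.13 and differently numbered ones from -0.15 to 0.15. With so few libraries this does not settle whether the numbers mark pairs. The main fit had no block because no label says that a number marks a mouse. Depth limits H19, Mirg, Dlk1 and Ndn, with 7 to 238 counts per library.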
